A study of Mus musculus with 6 samples.

Results

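Activated microglia and phagocyte genes are a set of 31 genes that resident macrophages of the brain express when they take up debris, handle lipid and produce oxidants. The members were chosen by name, as every non-control probe of the arrays that carries 1 of the 31 symbols. That gave 64 of 56605 probes. The list itself was drawn up with earlier results of these data known. Counts of members beside shares of all genes are therefore descriptions. The study hybridised total RNA of brainstem and cerebellum to single-colour (Cy3) mouse arrays, 1 array per sample, with 3 wild-type samples and 3 samples labelled MSA Transgenic, all at 16 weeks. Both genotypes have the same strain label, which names C57BL/6, 129 and C3H. The labels do not spell out MSA, name the transgene, its promoter or the cells it is expressed in, or give sex. They do not say that each sample is a separate animal either, so the p-values reflect only how far these samples vary.

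Microglia are the phagocytes of brain tissue. In degenerating or demyelinating tissue they are known to pass from a surveying state, marked by genes such as P2ry12 and Tmem119, to an activated state in which genes for lysosomal proteins, lipid carriers, the phagocyte NADPH oxidase and secreted factors are raised. Much of that programme is shared with macrophages elsewhere in the body, and several of its genes, Apoe and Cd9 among them, are also made by astrocytes and other brain cells. The arrays read RNA of the whole dissection, so that more microglia and more RNA per microglial cell cannot be told apart.

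Of the 31 members, 30 were tested, since they had a probe well above background on each array of 1 or both genotypes, and 27 lay above background on all 6 arrays. Msr1, the class A scavenger receptor, had 2 probes and neither was well above background on any array. Levels below are log2 of the scanner signal relative to the 75th percentile of the same array, and differences are transgenic minus wild type on that log2 scale, with the SE of the limma fit (n = 3 arrays per genotype). They compare a probe with itself across arrays, since a level of one probe cannot be set against that of another. A probe passed the test at a Benjamini-Hochberg adjusted p under 0.05 over all 24932 genes tested.

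Mean levels of most lysosomal, oxidase and leukocyte surface genes were higher in the transgenic samples, and those of the lipid carrier genes lay close to wild type. Cst7 was at 5.78 times its wild-type level, Cd52 at 3.20 times, Gpr65 at 2.82 times, Lyz1 at 2.25 times and Cd68 at 2.14 times. Apoe was at 1.07 times and Spp1 at 0.968 times. Cst7 was above background on 2 of 3 wild-type arrays and so entered the test through the transgenic arrays alone, as did Cybb and Mmp12. All of these are in the counts below. In all, 27 of the 30 tested members had a higher mean in the transgenic samples and 3 a lower one, with a median difference of 0.56 where the median of all genes tested was 0.00. The sizes depended on the background correction: with normexp the members' median was 0.24, and 4 members in place of 11 differed by 1 log2 unit or more, with Cst7 at 1.05 and Gpr65 at 0.38. By limma with Benjamini-Hochberg adjustment 0 members passed, as against 0.0441% of all genes, and 4 had an adjusted p under 0.10 (Gpr65, Cd52, Cd68 and Lyz1), as against 0.152%. At an unadjusted p under 0.05 limma counted 18 members as higher, where the share of all genes was 3.15%, and 0 as lower, where it was 2.71%. The 3 transgenic values lay above all 3 wild-type values in 19 members (7.4% of all genes) and below all of them in 1 member, Ank (7.5% of all genes). Members passed under some other settings. Cd52, Cd68 and Lyz1 did so with normexp background correction (3 of 30 members, 0.116% of all genes), and those 3 with Gpr65, Cst7 and Gpnmb did so with array weights (6 of 30, 0.381% of all genes).

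**Figure D1:**
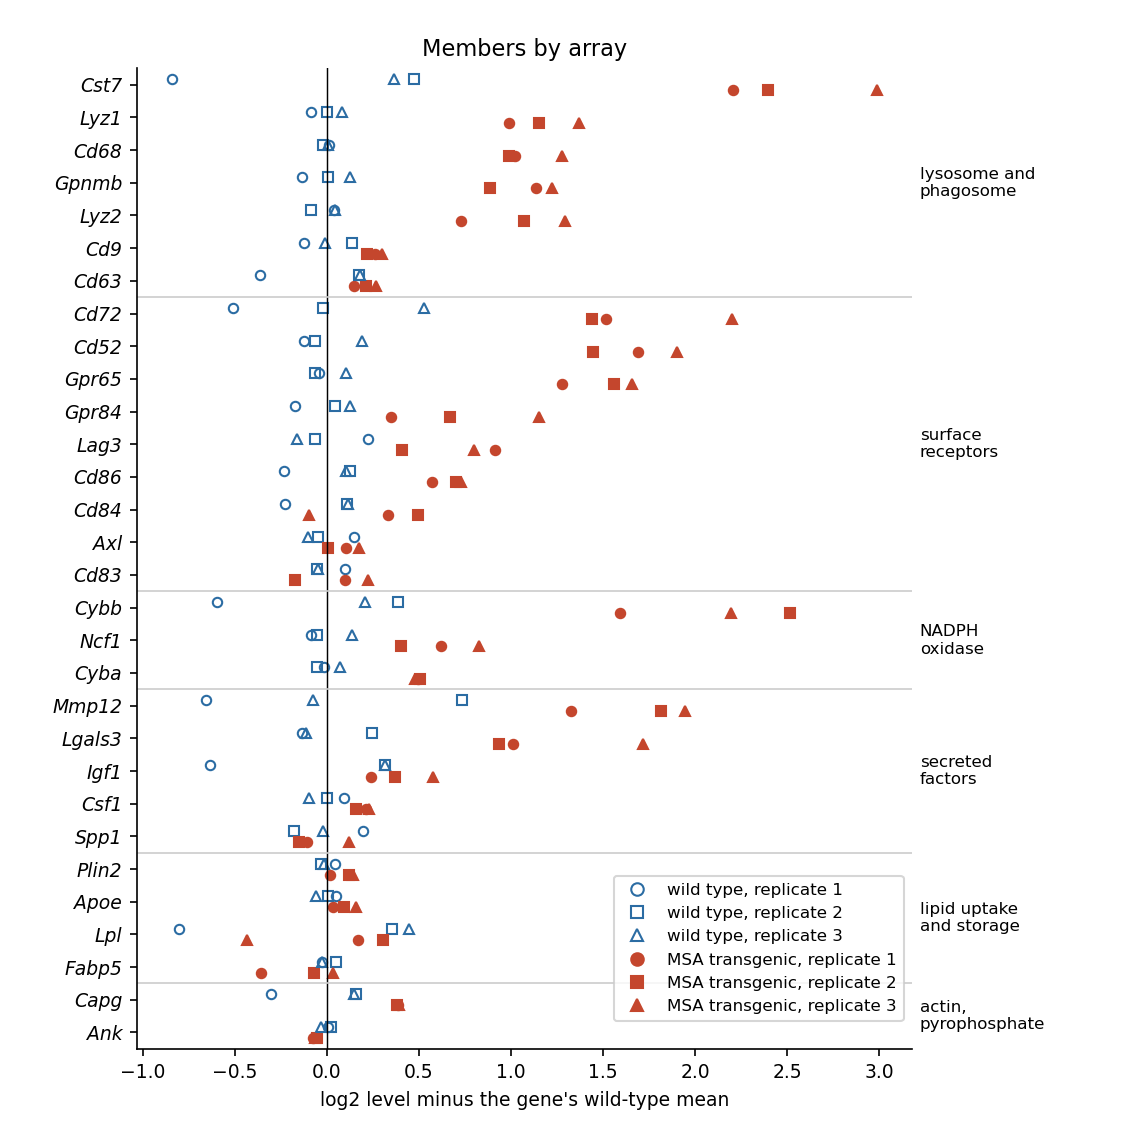
Each point is the log2 level of 1 member on 1 array minus the mean of its 3 wild-type arrays, with open blue symbols for wild type, filled red symbols for transgenic samples and members grouped by role. Transgenic points lie to the right of every wild-type point in 19 members, among them Cst7, Cd52 and Cd68, and around 0 in Apoe, Plin2 and Spp1.

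One array stood apart from the others. Slide 1 carried wild-type replicate 1 alone, and slide 2 the remaining 5 arrays. The 75th percentile of signal of wild-type replicate 1 was 405.7 intensity units, against 535.0 to 609.2 on slide 2, and 64.8% of its probes lay well above background, against 68.6% to 71.7%. Across genes it correlated with the remaining arrays at 0.974 to 0.978, and those with one another at 0.991 to 0.996. With a slide term, which leaves the comparison to the 5 arrays of slide 2, the median difference of the members was 0.52. Per array, the median over the members relative to their wild-type means was -0.11, 0.01 and 0.08 in wild type and 0.44, 0.45 and 0.65 in the transgenic samples, while the same median over all genes lay between -0.0025 and 0.014. Transgenic replicate 3 had the highest value in 16 of the 19 members whose groups did not overlap. The tissue label was checked against hindbrain markers. Pcp2 and Calb1 of Purkinje cells, Gabra6 and Cbln1 of granule cells and Chat of brainstem motor neurons were well above background on all 6 arrays, and Emx1 of forebrain neurons on none of the wild-type arrays.

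The promoters of 5 members are shown because Gpr65, Cd68, Lyz1 and Gpnmb were among the members with the smallest p and Lyz2 is the close copy of Lyz1. The sequences are those of RefSeq on GRCm38.p6, 5′ to 3′ on the gene's strand, from 250 bases before the annotated start to 30 bases from it on. Of the 31 members, 24 have a promoter in the table used. Capitals in the promoters of Cd68, Gpr65 and Gpnmb mark matches on either strand to GAGGAA (reverse TTCCTC), a core bound by ETS factors such as PU.1, the factor that sets up macrophage identity, and to TGACTCA (reverse TGAGTCA), the AP-1 site. Capitals in Lyz1 and Lyz2 mark a stretch the pair has in common.
Cd68, chr11:69666141-69666420, minus strand: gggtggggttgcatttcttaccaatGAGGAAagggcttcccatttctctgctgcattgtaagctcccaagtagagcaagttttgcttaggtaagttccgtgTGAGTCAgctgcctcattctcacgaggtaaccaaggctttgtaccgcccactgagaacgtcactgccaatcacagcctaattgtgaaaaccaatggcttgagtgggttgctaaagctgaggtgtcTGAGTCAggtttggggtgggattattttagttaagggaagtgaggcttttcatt
Gpr65, chr12:98268385-98268664, plus strand: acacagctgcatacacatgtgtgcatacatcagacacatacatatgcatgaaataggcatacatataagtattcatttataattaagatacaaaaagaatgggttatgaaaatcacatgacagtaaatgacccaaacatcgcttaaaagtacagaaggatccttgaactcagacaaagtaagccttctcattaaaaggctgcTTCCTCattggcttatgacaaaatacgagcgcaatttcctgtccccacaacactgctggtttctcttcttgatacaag
Gpnmb, chr6:49036268-49036547, plus strand: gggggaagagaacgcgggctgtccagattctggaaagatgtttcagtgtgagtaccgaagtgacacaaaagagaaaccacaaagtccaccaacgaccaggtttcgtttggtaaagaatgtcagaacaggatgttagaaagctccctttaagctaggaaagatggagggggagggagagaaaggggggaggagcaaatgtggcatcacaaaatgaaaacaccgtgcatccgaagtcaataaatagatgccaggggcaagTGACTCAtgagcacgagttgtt
Lyz1, chr10:117292839-117293118, minus strand: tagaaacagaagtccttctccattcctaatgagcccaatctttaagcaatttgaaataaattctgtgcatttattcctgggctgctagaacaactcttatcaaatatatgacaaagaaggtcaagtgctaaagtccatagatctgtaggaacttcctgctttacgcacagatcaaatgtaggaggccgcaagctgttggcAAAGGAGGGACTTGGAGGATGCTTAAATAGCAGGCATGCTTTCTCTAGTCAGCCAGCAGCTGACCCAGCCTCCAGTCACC
Lyz2, chr10:117282243-117282522, minus strand: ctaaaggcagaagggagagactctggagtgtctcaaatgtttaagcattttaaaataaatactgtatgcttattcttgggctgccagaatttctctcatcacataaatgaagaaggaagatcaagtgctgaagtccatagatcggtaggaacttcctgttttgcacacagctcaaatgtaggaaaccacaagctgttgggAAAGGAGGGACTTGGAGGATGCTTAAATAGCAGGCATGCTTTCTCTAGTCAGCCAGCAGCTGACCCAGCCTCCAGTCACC

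In the window of 300 bases, which runs 20 bases further than the printed stretch, Cd68 held GAGGAA from position -225 and again from position 30, counted from the start site, and the AP-1 letters from -149 and -24. Gpr65 held GAGGAA from position -48, and Gpnmb the AP-1 letters from position 9. GAGGAA was found in 12 of the 24 member genes with a promoter in the table (50%), as against 31.3% of all 27025 genes there, and the AP-1 letters in 4 of 24 (16.7%), as against 5.95%. These are matches of letters and no measure of binding. Lyz1 and Lyz2, compared position by position without gaps, were identical at 201 of 300 bases (67%), with 1 unbroken run of 86 bases from position -50 to position 36.

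A 60-base probe of Cd68 and a 60-base probe of Lyz2 are printed next. The Cd68 probe was chosen as the 1 member probe that passed when each probe was tested by itself (0.0286% of all probes). The Lyz2 probe was chosen as 1 of 2 that gave nearly the same difference. Positions are those of the files, on mm9, and both probes lie on the minus strand.
Cd68, chr11:69478314-69478373: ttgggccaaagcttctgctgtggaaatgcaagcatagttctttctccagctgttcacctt
Lyz2, chr10:116719175-116719234: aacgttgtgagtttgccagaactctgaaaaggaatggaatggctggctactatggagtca

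Lysosomal and phagosomal genes had the highest median of the 6 roles, 1.08 over 7 tested members, all 7 higher and 6 without overlap. With normexp their median was 0.98. Of all genes, 7.4% were higher without overlap, the share to read beside the count of each role. Cd68 encodes a heavily glycosylated membrane protein of late endosomes and lysosomes of phagocytes. On its kept probe, the tested probe with the highest mean, Cd68 read -0.77, -0.80 and -0.77 in wild type and 0.24, 0.21 and 0.50 in the transgenic samples. The wild-type values were nearly the same, and every transgenic value was about 1 log2 unit above them. The difference was 1.10 ± 0.10 (limma adjusted p = 0.059), and with normexp 0.98 (limma adjusted p = 0.017). The probe printed above gave 1.41, with an adjusted p of 0.028 over the 38463 probes tested in limma, and a further probe in another part of the gene, above background on 1 of the 3 wild-type arrays, gave 1.43, so 3 of 3 Cd68 probes were higher without overlap.

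Lyz2, the lysozyme of macrophages and neutrophils, read 2.10, 1.97 and 2.10 in wild type and 2.79, 3.13 and 3.35 in the transgenic samples, a difference of 1.03 ± 0.16 (limma adjusted p = 0.191). Its other probe gave 1.07. Lyz1, a second lysozyme gene best known from Paneth cells of the gut, read -0.63, -0.54 and -0.46 in wild type and 0.45, 0.60 and 0.82 in the transgenic samples. Its difference was 1.17 ± 0.12 (limma adjusted p = 0.077), or 1.05 with normexp (limma adjusted p = 0.025). The groups did not overlap in either gene, and transgenic replicate 3 was highest in both. Whether the Lyz1 probe also reads Lyz2 RNA was not tested, so the pair may not be 2 separate observations.

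Cst7 encodes cystatin F, an inhibitor of lysosomal cysteine proteases. It read -5.49, -4.17 and -4.28 in wild type and -2.44, -2.25 and -1.66 in the transgenic samples, without overlap. The difference was 2.53 ± 0.40 (limma adjusted p = 0.209). Of the 3 wild-type arrays 2 were above background, so Cst7 entered the test through the transgenic arrays alone, where it was higher. Wild-type replicate 1 was lowest, and without that replicate the difference was 2.11. With normexp it was 1.05, a correction whose offset of 50 intensity units by itself shrinks the differences of dim genes.

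Gpnmb, a transmembrane glycoprotein of lysosomes in lipid-laden macrophages, read -3.88, -3.74 and -3.62 in wild type and -2.61, -2.86 and -2.53 in the transgenic samples, without overlap. The difference was 1.08 ± 0.13 (limma adjusted p = 0.103) and 0.41 with normexp. The tetraspanins Cd9 and Cd63, which sit in the plasma membrane and in late endosomes, differed by 0.26 ± 0.10 and 0.21 ± 0.17. Wild-type replicate 1 read 4.77 for Cd63, where the rest lay between 5.28 and 5.39, and its difference without that replicate was 0.03. A second Cd9 probe, on the strand opposite to the gene, was not above background on any array.

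Surface receptors had a median of 0.71 over 9 tested members, all 9 higher and 6 without overlap. With normexp the median was 0.25. Cd52, a short glycosyl-anchored peptide of leukocytes, read -0.86, -0.80 and -0.55 in wild type and 0.96, 0.71 and 1.16 in the transgenic samples. The lowest transgenic value, 0.71, lay above the highest wild-type value, -0.55. The difference was 1.68 ± 0.15 (limma adjusted p = 0.057), and 1.52 with normexp (limma adjusted p = 0.017). A second Cd52 probe was not above background on any array.

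Gpr65 senses extracellular protons. It read -4.98, -5.00 and -4.83 in wild type and -3.66, -3.38 and -3.28 in the transgenic samples, above background on all 6 arrays. The difference was 1.50 ± 0.13, the smallest p of the members (limma adjusted p = 0.052), and 0.38 with normexp (limma adjusted p = 0.447). Cd72, a lectin-like coreceptor of B cells that activated microglia also express, read -5.13, -4.65 and -4.09 in wild type and -3.11, -3.19 and -2.43 in the transgenic samples. Its difference was 1.72 ± 0.33 (limma adjusted p = 0.289), and 0.59 with normexp.

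A second Cd72 probe lay above background on 3 of 3 transgenic and 0 of 3 wild-type arrays. For such a probe the fold is given against a floor. The floor is the dimmest signal that counted as above background on each wild-type array, or the probe's own signal where higher. It is no strict limit, since a probe can lie above the dimmest such signal without counting as above background. Against that floor the Cd72 probe was 1.19-fold higher (limma adjusted p = 0.077 over probes).

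The costimulatory ligand gene Cd86 was at -3.80, -3.44 and -3.46 in wild type and -2.99, -2.86 and -2.84 in the transgenic samples, without overlap (0.67 ± 0.13, limma adjusted p = 0.287). Another tested probe gave 0.69 and a further one, annotated to a separate transcript, -0.34 with overlapping groups. Gpr84, a receptor for medium-chain fatty acids, differed by 0.72 ± 0.22, and Lag3, an inhibitory receptor that binds MHC class II, by 0.71 ± 0.17, both without overlap. With normexp the differences of these 3 genes were 0.19, 0.25 and 0.27. A second Lag3 probe, above background on 1 wild-type and 2 transgenic arrays, gave 0.44 with overlapping groups and was not tested.

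The remaining receptors overlapped between genotypes on their kept probes. Cd84, a self-binding receptor of the SLAM family, differed by 0.24 ± 0.19 there, with transgenic replicate 3 at -1.76 below both other transgenic arrays. Another tested Cd84 probe, above background on every array, gave 0.30 with overlapping groups. A probe at another position, above background on each transgenic array and on 0 of the wild-type ones, was 2.41-fold higher against the same floor (limma adjusted p = 0.245 over probes). Axl, a receptor tyrosine kinase through which phagocytes take up dying cells, differed by 0.09 ± 0.10, and Cd83, a surface protein of activated antigen-presenting cells, by 0.05 ± 0.13.

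The phagocyte NADPH oxidase makes superoxide through a membrane core of Cybb (gp91phox) and Cyba (p22phox) that cytosolic subunits such as Ncf1 (p47phox) switch on. All 3 members were higher without overlap, where the share of all genes was 7.4%. Their median was 0.62, or 0.22 with normexp. Cyba read 0.91, 0.87 and 0.99 in wild type and 1.42, 1.43 and 1.41 in the transgenic samples, a difference of 0.49 ± 0.08 (limma adjusted p = 0.191). These are tight groups, and normexp gave 0.47. A probe at another position gave 0.42, and a further one, annotated to a cDNA clone, -0.07 with overlap.

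Cybb read -7.61, -6.63 and -6.81 in wild type, where it was above background on 0 arrays, and -5.42, -4.50 and -4.82 in the transgenic samples, where it was above background on all 3. Against the same floor Cybb was 1.70-fold higher in the transgenic samples (limma adjusted p = 0.211, fitted difference 2.10 ± 0.34). Cybb entered the test through the transgenic arrays alone, where it was higher. With normexp the fitted difference was 0.13. A second Cybb probe, above background on 2 transgenic and 0 wild-type arrays, overlapped between genotypes and was not tested. Ncf1 read -3.50, -3.46 and -3.27 in wild type and -2.79, -3.00 and -2.58 in the transgenic samples, a difference of 0.62 ± 0.14 (limma adjusted p = 0.408). Its other tested probe gave 0.00 with overlapping groups, so the 2 Ncf1 probes did not give the same result.

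Of 9 oxidase partners that are no members, all tested, 8 were higher and 0 passed in limma in either direction, 4 at an unadjusted p under 0.05. The median of the list was 0.36, or 0.07 with normexp. The small GTPase gene Rac2 differed by 0.74 ± 0.12 (limma adjusted p = 0.191) and the proton channel gene Hvcn1 by 1.04 ± 0.21 (0.334), each without overlap. With normexp they differed by 0.29 and 0.53.

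Secreted factors were divided, with 4 of 5 higher, 3 without overlap and a median of 0.40, or 0.20 with normexp. Lgals3, the galactoside-binding lectin galectin-3 of activated phagocytes, read -1.56, -1.17 and -1.53 in wild type and -0.41, -0.48 and 0.29 in the transgenic samples. Transgenic replicate 3 stood above the other 2. The difference was 1.22 ± 0.24 (limma adjusted p = 0.308), 0.97 without that replicate, and 1.12 on a second probe. Mmp12, a metalloelastase of macrophages, had 1 probe above background on each transgenic and on 0 wild-type arrays, 1.58-fold higher against the same floor (limma adjusted p = 0.408). Its other 2 probes were not above background on any array, and with normexp the fitted difference was -0.0069 in place of 1.70.

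Csf1, a growth factor for microglia, differed by 0.20 ± 0.09 on its kept probe without overlap, and by 0.62 and 0.72 on a pair of overlapping probes at another position. Igf1, a growth factor that supports myelinating cells, read -1.32, -0.37 and -0.37 in wild type and -0.45, -0.32 and -0.11 in the transgenic samples. Wild-type replicate 1 was low, and the difference was 0.40 ± 0.28 with it and 0.08 without it. Spp1, the matrix protein osteopontin, read 3.62, 3.24 and 3.40 in wild type and 3.31, 3.26 and 3.54 in the transgenic samples. These groups overlapped fully, with a difference of -0.05 ± 0.13 and a 95% interval from -0.38 to 0.28. Motor neurons of the brainstem are also known to express Spp1.

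Lipid uptake and storage genes had a median of 0.06 over 4 tested members, with 0 at an unadjusted p under 0.05 and 0 without overlap. Apoe, the main lipid carrier protein of brain, read 7.20, 7.16 and 7.09 in wild type and 7.19, 7.24 and 7.31 in the transgenic samples. The difference was 0.09 ± 0.08, with a 95% interval from -0.11 to 0.29, and a second probe gave 0.00. Plin2, which coats lipid droplets, differed by 0.09 ± 0.08, with a 95% interval from -0.10 to 0.29, and Fabp5, a fatty acid binding protein, by -0.13 ± 0.12.

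Lpl, the lipase that releases fatty acids from lipoproteins, depended on the probe. The kept probe read -0.02, 1.13 and 1.22 in wild type and 0.95, 1.08 and 0.34 in the transgenic samples, a difference of 0.02 ± 0.39, or -0.38 without wild-type replicate 1. That probe is annotated to an Ensembl transcript. A RefSeq probe further along the gene gave 0.61 without overlap and another 0.36 with overlap. Neither direction held across settings on the kept probe.

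Of 23 other genes for lipid uptake, storage and efflux, all tested, 11 were higher, 12 lower and 0 passed in limma, with a median of -0.01 and, at an unadjusted p under 0.05, 1 higher and 1 lower. Ch25h, which makes an oxysterol and is induced in activated macrophages, differed by 1.46 ± 0.31 (limma adjusted p = 0.366), or 0.70 with normexp. Its groups did not overlap. The scavenger receptor gene Cd36 differed by 0.53 ± 0.24 with overlap. With normexp Cd36 differed by -0.09.

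The last 2 members have other functions. Capg, an actin filament capping protein of macrophages, differed by 0.39 ± 0.14 without overlap, and by 0.23 without wild-type replicate 1. Ank, a membrane protein that exports pyrophosphate, read 3.14, 3.16 and 3.10 in wild type and 3.06, 3.08 and 3.07 in the transgenic samples. It was the 1 member below the wild-type range, with a difference of -0.07 ± 0.07 (limma adjusted p = 0.828).

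**Figure D2:**
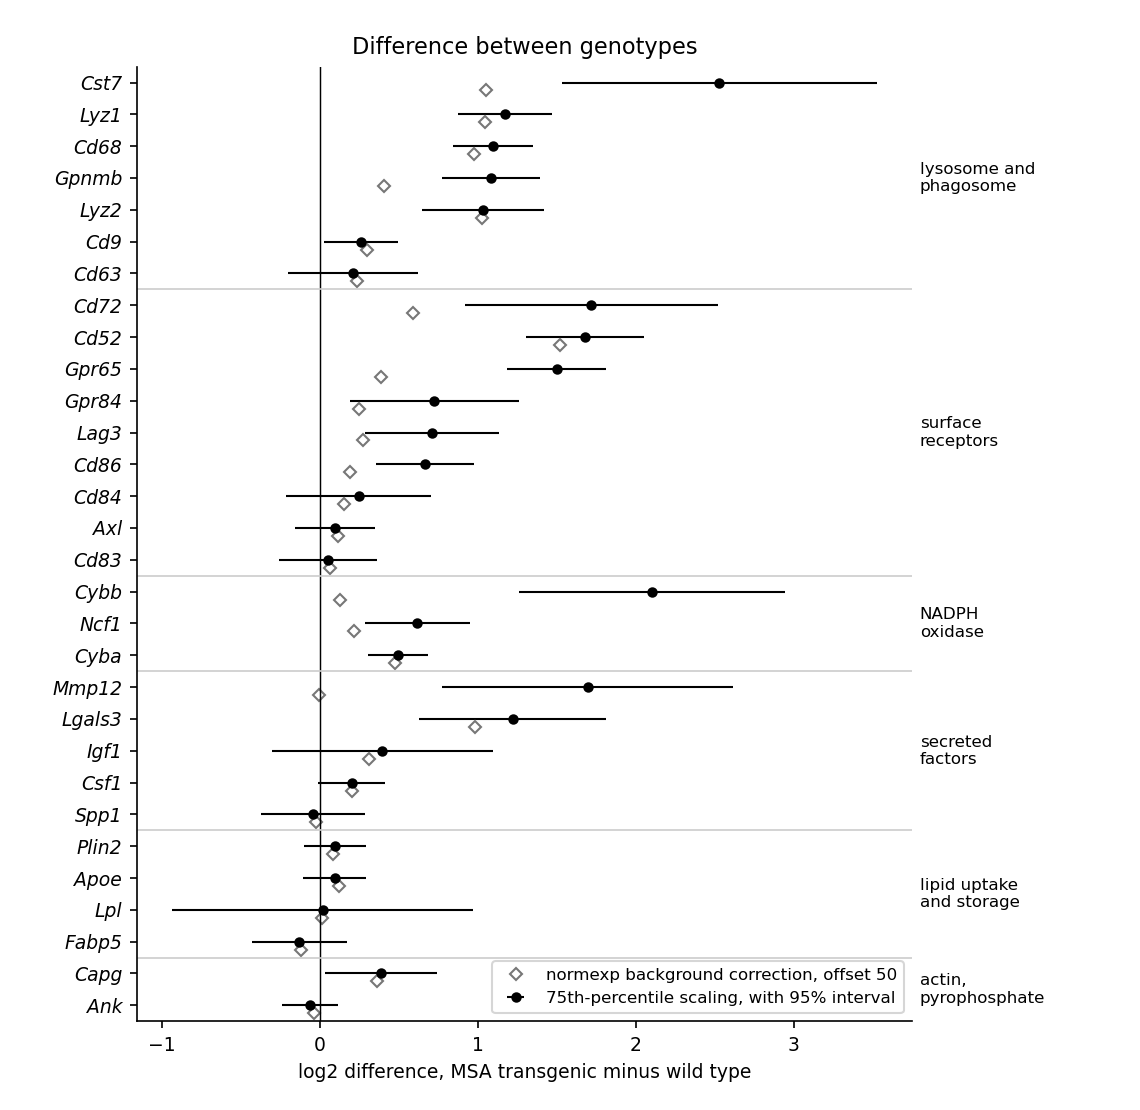
Black points are the log2 differences of the 30 tested members with their 95% intervals from limma, and grey diamonds the same differences after normexp correction, in order of role and difference. The intervals of 18 members exclude 0, and normexp moved dim genes such as Gpr65, Cybb and Mmp12 much closer to 0 but Cd52, Cd68 and Lyz1 little.

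Where a member had several probes, they mostly gave the same sign. Of the 14 members with 2 or more tested probes, 11 had only higher ones, and Cd86, Ncf1 and Cyba each had a probe below 0. Over all 50 tested probes 44 were higher, 30 without overlap, and 1 was lower without overlap. The same shares over all probes were not counted, and over all genes they were 7.4% and 7.5%. Probes of the same gene are not separate observations. Of all 64 probes, 4 were above background on all 3 transgenic and 0 wild-type arrays, 0 the other way round and 7 on no array. These 4 entered the tests through the transgenic arrays alone. The shares of all probes with these patterns were not counted. Wild-type replicate 1 had the fewest probes above background, 64.8% against 68.6% to 71.7% on the other arrays, so the 2 patterns were not equally easy to reach.

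**Figure D3:**
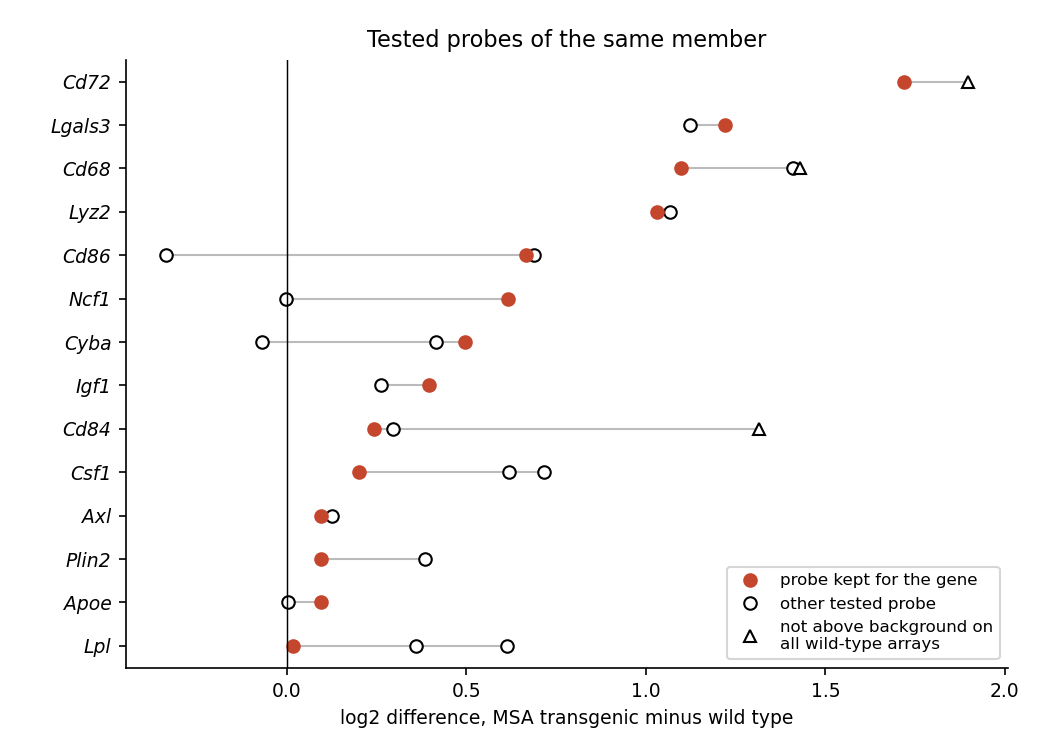
Each row is 1 of the 14 members with 2 or more tested probes, and each symbol the log2 difference of 1 probe, with the kept probe in red and triangles for other probes not above background on all wild-type arrays. Both Lyz2 probes lie at 1.03 and 1.07, while the Cd86 probes run from -0.34 to 0.69.

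Receptors and ligands around the members were examined from lists of genes that are no members. Of 5 genes of the CSF receptors and their ligands all were higher and 0 passed in limma, 1 at an unadjusted p under 0.05, with a median of 0.19. Csf1r, the receptor of the Csf1 protein on microglia, read 3.14, 3.18 and 3.13 in wild type and 3.62, 3.59 and 3.72 in the transgenic samples, a difference of 0.49 ± 0.08 (limma adjusted p = 0.204). Il34, its other ligand, differed by 0.19 ± 0.10 and Csf2rb by 0.61 ± 0.45, the latter with wild-type replicate 1 at -4.63 and the other arrays between -3.13 and -2.82.

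Of 4 genes of the TAM receptors, to which Axl belongs, and their ligands, 2 were higher and 0 passed in limma, with 0 at an unadjusted p under 0.05 and a median of 0.05. Mertk differed by 0.35 ± 0.14, the bridging ligand gene Pros1 by 0.19 ± 0.08 and Tyro3 by -0.18 ± 0.11. Of 13 other receptors and ligands of members, 12 were tested, 6 were higher, 6 lower and 0 passed in limma, 2 at an unadjusted p under 0.05, with a median of 0.03. Lgals3bp, a secreted glycoprotein that binds galectin-3, differed by 0.93 ± 0.21 (limma adjusted p = 0.408) and Cd48, of the same receptor family as Cd84, by 1.003 ± 0.27 (0.610), both without overlap, and the integrin gene Itgav by -0.16 ± 0.08.

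Of 10 transcription factor genes of phagocytes, 9 were tested, 7 were higher and 0 passed in limma, 2 at an unadjusted p under 0.05, with a median of 0.12. Irf8, needed for microglial development, differed by 0.70 ± 0.15 (limma adjusted p = 0.366), Runx1 by 0.52 ± 0.15 and Cebpa by 0.20 ± 0.13. Spi1, which encodes PU.1, was not tested, since no probe of it was above background on all arrays of either genotype.

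Genes that did pass were found among 20 other genes of disease-associated microglia. Of these, 18 were tested, 16 were higher, and 4 rose in limma at an adjusted p under 0.05, with 0 that fell. Of all genes, 0.0441% passed in either direction. The median of the list was 0.68, or 0.54 with normexp. Itgax, an integrin subunit, rose by 3.76 ± 0.24 (limma adjusted p = 0.022), the chemokine gene Ccl3 by 3.54 ± 0.15 (0.0061), Clec7a, a receptor for fungal glucans, by 3.32 ± 0.19 (0.016) and the chemokine gene Ccl6 by 1.50 ± 0.10 (0.024). After normexp correction the fitted values were 1.42 for Itgax, 1.31 for Ccl3, 2.31 for Clec7a and 1.13 for Ccl6. Itgax and Ccl3 were above background on 1 of 3 wild-type arrays. They entered the test, and the count of 4, through the transgenic arrays alone, where they were higher. The earlier results that the members were chosen with already held these 4 genes, so that this count is a description. Trem2, the lipid-sensing receptor of microglia, and its adaptor gene Tyrobp, chosen after their values were seen, differed by 0.75 ± 0.08 and 0.93 ± 0.13 (limma adjusted p = 0.077 and 0.151).

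**Figure D4:**
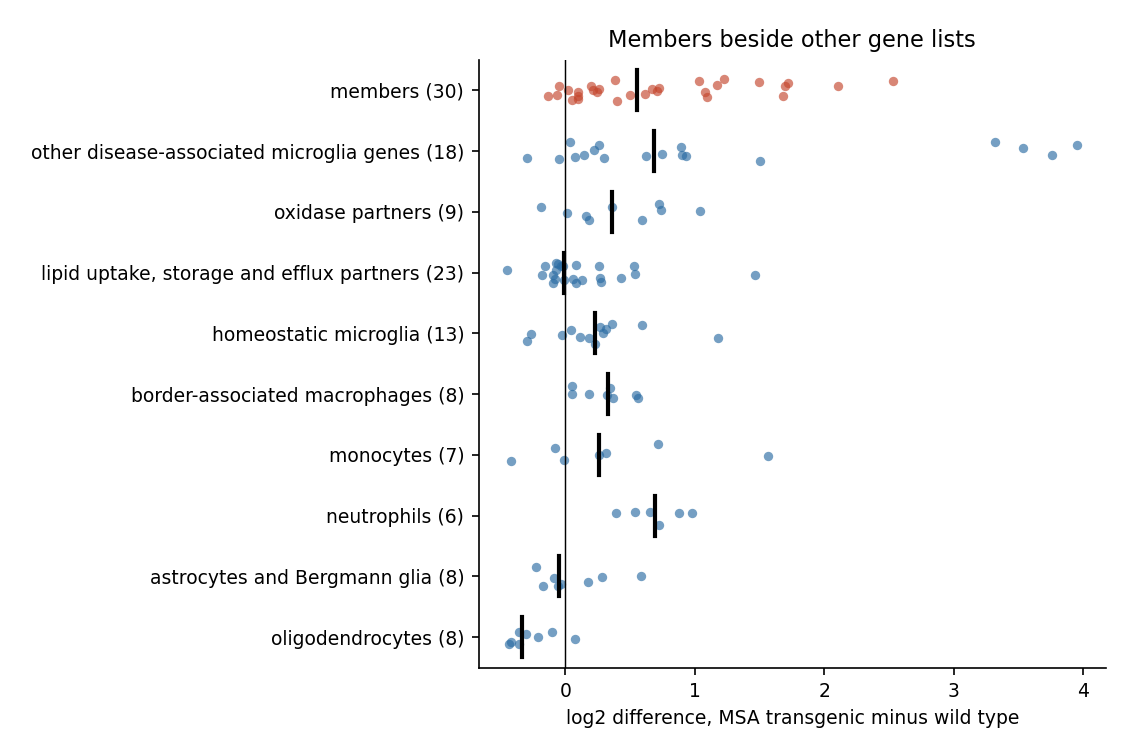
Each point is the log2 difference of 1 tested gene, with the members in red, other lists in blue, the number of tested genes in brackets and a thick black bar at each median. The members' median is 0.56, that of the other disease-associated microglia genes 0.68, that of homeostatic microglia 0.23 and that of oligodendrocytes -0.33.

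Other cell types that could hold the members' RNA were read through marker lists, and 0 marker genes passed in limma in any of these lists. Of 13 homeostatic microglia markers, all tested, 10 were higher, 4 of them without overlap and 4 at an unadjusted p under 0.05, as was 1 lower gene, with a median of 0.23, or 0.11 within slide 2. Aif1, a calcium-binding protein of microglia, differed by 0.59 ± 0.10 (limma adjusted p = 0.255) and Tmem119 by 0.29 ± 0.09. P2ry12 and Cx3cr1, chosen after their values were seen, differed by 0.05 ± 0.15 and 0.27 ± 0.13, both with overlap. The summed level of all 13 markers on the linear scale, relative to each array's 75th percentile, was 78.4 to 209.0 in wild type. In the transgenic samples it was 176.8 to 198.1. The sum mostly followed the brightest probe, that of Siglech, a gene named after its values were seen. Siglech read 5.85 on wild-type replicate 1 and 7.21 to 7.53 on the other arrays, so the low end of the wild-type range is that array.

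All 8 markers of border-associated macrophages were tested and higher, 3 at an unadjusted p under 0.05, with a median of 0.33, or 0.15 with normexp. Their summed level was 2.01 to 2.31 in wild type and 2.32 to 2.67 in the transgenic samples. Mrc1 differed by 0.37 ± 0.09, Ms4a7 by 0.56 ± 0.17 and Cd163 by 0.54 ± 0.17, each without overlap. Of 8 monocyte markers, 7 were tested and 4 were higher, 1 in each direction at an unadjusted p under 0.05. The median of the 7 was 0.26, or 0.0028 with normexp. Their summed level was 38.2 to 47.5 in wild type and 47.2 to 51.2 in the transgenic samples. Chil3 differed by 1.56 ± 0.46, with transgenic replicate 1, at 0.06, above the other 2 transgenic arrays, Ccr2 by -0.42 ± 0.17 and Ms4a4c by 0.32 ± 0.17. F10 was not above background on any wild-type array and was not tested.

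Of 9 neutrophil markers, 6 were tested and all 6 were higher, 3 at an unadjusted p under 0.05. The median of the 6 was 0.69, or 0.50 within slide 2 and 0.29 with normexp. Their summed level was 0.997 to 1.67 in wild type and 1.74 to 2.08 in the transgenic samples. S100a8 differed by 0.98 ± 0.32, S100a9 by 0.73 ± 0.27 and Camp by 0.39 ± 0.14. Ngp, Ltf and Retnlg were not above background on any wild-type array and were not tested. Neutrophils also express Lyz2, Cybb, Cyba and Ncf1, as macrophages of the brain borders and monocytes do, and the part of these cell types in the members' differences was not tested.

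Lymphocyte and dendritic cell markers overlapped between the genotypes in every tested gene. Of 10 T and NK cell markers 6 were tested and 5 were higher, with a median of 0.42, all with overlap, and of 0.09 within slide 2. Cd4, which microglia also express, differed by 0.67 ± 0.36, Lck by 0.44 ± 0.31 and Cd3e by 0.41 ± 0.29. Of 6 B cell markers 4 were tested with a median of 0.03 (Ms4a1 -0.59 ± 0.29, Pax5 0.36 ± 0.46, Cd79b 0.23 ± 0.30), and of 6 dendritic cell markers 2 with a median of -0.14 (Zbtb46 -0.19 ± 0.12, Flt3 -0.08 ± 0.11).

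Among resident cells, oligodendrocyte markers had a median of -0.33 over 8, of which 7 were lower, 4 at an unadjusted p under 0.05, with Mog at -0.42 ± 0.09 and Mbp at -0.36 ± 0.11. Astrocyte and Bergmann glia markers had a median of -0.05 over 8, with Gfap at 0.59 ± 0.11, Slc1a2 at -0.23 ± 0.12 and Gja1 at 0.28 ± 0.19. The medians were -0.03 for endothelial and mural cells, -0.13 for motor neurons, -0.15 for Purkinje cells, -0.15 for granule cells and 0.02 for meningeal fibroblasts.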

How the data were processed

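The deposited scanner files hold 1 single-colour array each, with spot intensity values on a linear scale that the scanner software had background-subtracted, per the file headers, and a flag for signal well above background. The headers name Feature Extraction 10.7.1.1 and build mm9, and the submitters' processing notes version 9.5.1.1. The authors' value table of intensity values served as an alternative. Its columns matched a quantile normalization of the linear signals for 99.943% or more of their values, within 0.01 log2, with a median of 59.87 each.

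Control spots and spots with an outlier flag (39 to 84 per array) were dropped, 0 spots were saturated, and repeat spots were averaged. Signals were scaled to the 75th percentile of their array and taken to log2. Of 56605 probes, 32994 were named through the RefSeq table (GRCm38.p6, for names only) by accession, 10224 by symbol and 520 by synonym, and 12867 kept the file's name. A probe entered the test if flagged as above background on every array of 1 or both genotypes (38463 probes), and the brightest such probe stood for its gene (24932 genes, 18104 of them named by the table). The fit used limma 3.58.1 (lmFit, eBayes, R 4.3.3) over all 6 arrays, with Benjamini-Hochberg adjustment. The steps were tested on simulated data.

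The members and lists were chosen with earlier results of these data known, so no list was tested as a set. Named in the text are all 31 members, every called gene of each list and up to 3 tested genes per list with the smallest p, some of which are not reported here. Other genes are marked in the text as chosen with their values known, apart from the hindbrain and forebrain markers and the genes listed as not above background. Precision is limited by the number of arrays. The alternatives were normexp background correction (offset 50), quantile scaling, other filters on dim probes, the value table, blocks for slide and for the title number's first digit, the variance model, array weights, the probe per gene, the threshold and leaving out each sample. Promoter sequences came from a RefSeq table on GRCm38.p6.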

Additional observations from a re-analysis of the deposited data

Results flagged for a closer look

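A pair of member probes outside the tests had signal above background on transgenic arrays only. A Cd86 probe on chromosome 16 (mm9, 36615381 to 36615440) was well above background on 2 transgenic and 0 wild-type arrays, where the measured means differed by 0.89 log2. Since the wild-type signals were not well above background, its fold is given against the floor described for Cd72, and was 1.09. A Cybb probe on chromosome X (mm9, 9013216 to 9013275) was above background on 2 transgenic and 0 wild-type arrays, where the measured means differed by 1.46 log2 with overlapping groups. Against that floor the fold of the Cybb probe was under 1, so none is given. Both lie in genes whose kept probe was also higher in the transgenic samples, and neither difference was tested.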

How the results depend on the processing

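All alternatives were listed with earlier results of these data known. Members passing the threshold numbered 0 in limma, of 11 genes in all. They numbered 3 of 29 with normexp (Cd52, Cd68, Lyz1), 3 of 23 with probes above background on all arrays (Cd52, Cd68, Gpr65), 1 of 11 with the title number's first digit as a block (Cybb) and 3 of 27 with an intensity trend (Cd52, Cd68, Lyz1). They numbered 6 of 95 with array weights, 4 of 24 with a gene's probes averaged (Cd52, Cd68, Gpr65, Cd72), 1 of 11 probes with each probe by itself (Cd68) and 4 of 38 at an adjusted p under 0.10. They numbered 0 with quantile normalization, no filter, the value table, slide as a block, a 2-fold minimum and each sample left out. The median difference of 0.56 became 0.24 with normexp and 0.39 with probes above background on all arrays, where fewer members were tested. Leaving out 1 sample gave 0.51 to 0.59. The cause of the other changes was not tested.

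Across 477 values of the 30 tested members under alternatives, 446 kept their direction and side of the threshold, 20 in 8 genes newly passed it and 11 in 4 genes changed sign, and 26 members kept their sign throughout. Lpl was -0.38 with slide as a block, -0.24 with array weights and -0.38 to 0.24 with 1 sample left out. Spp1 was 0.052 with slide as a block, 0.015 with array weights and -0.137 to 0.052 with 1 sample left out. Mmp12 was -0.0069 with normexp, and Cd83 lay between -0.037 and 0.162 with 1 sample left out. No paired analysis was run, since the labels give no replicate numbers that groups share and do not say whether samples with neighbouring title numbers are related. Probes near background limit Cst7, Cybb and Mmp12.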
